A study of Arabidopsis thaliana with 4 samples.

Results

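Extensins are rod-like structural proteins of the plant cell wall. The genes described here are the 47 whose annotation in the deposited tables carries the word extensin, out of 23425 loci that received a read. They were taken by that word alone, with no measured value, although earlier results of these data were known. They comprise 17 genes of the proline-rich extensin-like family, 4 genes annotated by name (*EXT3*, *EXT4*, *EPR1* and *ELP*), 2 leucine-rich extensins (*LRX1* and *LRX2*), 3 extensin-like receptor kinases (*PERK1*, *PERK4* and *PERK10*) and 21 genes of the Pollen Ole e 1 allergen and extensin family. RNA from roots of 8-day-old Arabidopsis seedlings was sequenced in 4 libraries, 1 for each of *arf7*-NAA, *arf7*-Mock, WT-NAA and WT-Mock. WT plants were of the accession Col, *arf7* is a line with a T-DNA insertion in the auxin response factor gene *ARF7* in that background, NAA is the synthetic auxin naphthalene acetic acid (10 μM for 4 h, as the study's methods give it) and Mock stands for seedlings without it. The labels give growth in the dark for all libraries, whereas the methods give a light cycle.

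An extensin chain is made largely of repeats in which a serine is followed by a run of prolines. The prolines are hydroxylated and then carry chains of arabinose, the serine carries a galactose, and tyrosines placed near each other are cross-linked by peroxidases once the protein is in the wall. In roots, many extensins are best known from root hairs, the tip-growing outgrowths of the epidermis, where loss of single extensins, of the arabinosylating enzymes or of LRX1 gives short or misshapen hairs. Leucine-rich extensins join an extensin tail to a leucine-rich repeat head that binds RALF peptides, and PERK proteins join a proline-rich outer part to a kinase inside the cell. The Ole e 1 family is named after an olive pollen allergen and shares mainly its annotation with the classical extensins.

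The coding sequences separate these groups only in part. Stretches of 96 coding bases are printed below for members that the levels or the NAA comparisons turn on, from the RefSeq annotation of TAIR10.1, and the capitals mark the codons of each serine followed by 4 prolines. The number of such Ser-Pro runs in the whole coding sequence was 28 in *EXT3*, 22 in AT2G43150, 70 in AT3G28550, 37 in *EXT6* and 28 in AT1G26250.
*EXT3*, codons 29 to 60: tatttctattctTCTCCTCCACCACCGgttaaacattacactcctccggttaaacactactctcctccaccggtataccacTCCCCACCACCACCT
AT2G43150, codons 33 to 64: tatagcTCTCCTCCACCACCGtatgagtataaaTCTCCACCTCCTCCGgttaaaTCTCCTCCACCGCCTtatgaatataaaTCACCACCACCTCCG
AT3G28550, codons 75 to 106: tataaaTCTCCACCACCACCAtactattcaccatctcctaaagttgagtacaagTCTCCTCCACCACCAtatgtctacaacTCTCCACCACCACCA
*EXT6* (AT2G24980), codons 76 to 107: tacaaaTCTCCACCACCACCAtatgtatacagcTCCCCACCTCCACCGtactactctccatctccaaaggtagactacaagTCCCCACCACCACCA
AT1G26250, codons 62 to 93: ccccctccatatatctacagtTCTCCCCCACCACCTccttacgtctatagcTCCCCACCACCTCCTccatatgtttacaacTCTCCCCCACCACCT
In AT2G43150 and *EXT6* the commonest distance from the start of a run to the start of the next was 9 codons, in AT1G26250 it was 10, in *EXT3* 12 and in AT3G28550 16. AT1G26250 had 43 places with a tyrosine, any residue and another tyrosine, beside 49 in AT4G08380, 45 in AT1G26240, 35 in AT3G28550 and 21 in *EXT6*. Of the 47 genes, 18 had 10 or more Ser-Pro runs, 4 had 1 to 9 and 25 had 0. The last class held all 21 Ole e 1 genes, and also *EPR1*, *ELP*, *PERK1* and AT5G59170 of the proline-rich family. The first class held *LRX1* and *LRX2* beside proline-rich genes.

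Some of these repeats are shared between genes, which bears on how far their reads can be assigned. The related genes AT4G08400 and AT4G08410 were identical over 96 of 96 bases in the stretch printed here, with the same capitals.
AT4G08400, codons 114 to 145: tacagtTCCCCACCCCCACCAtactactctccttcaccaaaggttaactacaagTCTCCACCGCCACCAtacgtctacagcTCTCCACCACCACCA
AT4G08410, codons 132 to 163: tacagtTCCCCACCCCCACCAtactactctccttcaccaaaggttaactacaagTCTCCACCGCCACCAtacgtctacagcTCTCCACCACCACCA
Of the 50-base windows of the AT4G08400 transcript, 56.1% recurred in another transcript, mainly that of AT4G08410, and of the AT4G08410 windows 43.4% did. *EXT6* shared 3.72% of its windows, mainly with AT5G06630. Annotated genes on the opposite strand overlapped 62.4% of the windows of AT1G26250 (AT1G26255), 25.4% of those of *EXT3* (AT1G21313) and 23.9% of those of *EXT10*, mainly AT5G06645. None of these antisense genes was listed in the library tables. Strand was not stated for the counts, so reads of a gene and of its antisense partner cannot be told apart.

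Library totals lay between 7.03 and 7.57 M (mega) assigned reads. As each condition was sequenced once, no value here has a replicate, the tests ask whether 2 libraries differ and not whether 2 conditions do, and the intervals cover counting error only. In whole roots, fewer cells of a type and less RNA per cell cannot be told apart. *ARF7* itself had 3 reads in *arf7*-NAA, 8 in *arf7*-Mock, 12 in WT-NAA and 6 in WT-Mock, and at this depth these reads do not check the genotype labels. Of 11 auxin-inducible genes listed, *GH3.3* was the 1 called higher with NAA in *arf7* and *LBD29* the 1 in WT, and 0 were called lower in either. Of the 9 with at least 20 reads over the libraries, 5 were higher and 4 lower with NAA in *arf7* (median log2 ratio 0.04). In WT 7 were higher and 2 lower (median 0.51). *GH3.3* also differed between the Mock libraries, with 697 reads in *arf7*-Mock and 94 in WT-Mock. All 8 root markers were present in each library. Seed markers were not even across libraries: the summed reads of the 11 genes chosen were 468 in *arf7*-NAA, 26 in *arf7*-Mock, 7 in WT-NAA and 12 in WT-Mock. The 8 leaf and photosynthesis markers summed to 663 reads in *arf7*-NAA, 207 in *arf7*-Mock, 363 in WT-NAA and 484 in WT-Mock. Of 4 pollen markers, 3 were not listed in any library and *ANX1* had 52 to 66 reads. The seed storage genes *CRA1* and *CRC* and the leaf marker *LHCA1* were not listed either. Genes not listed have no deposited count, which is not a measured absence.

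Extensins were among the most abundant transcripts of these roots. The 47 genes took 3.61% of all reads in *arf7*-NAA and 3.06% in *arf7*-Mock, against 3.91% in WT-NAA and 3.08% in WT-Mock. Levels between genes are compared as RPKM, reads scaled to transcript length and library total, which the authors deposited for each library. *EXT3*, an extensin needed for orderly cell walls in the embryo, ranked 2 among all loci by mean RPKM, at 8864 RPKM in *arf7*-NAA, 8424 in *arf7*-Mock, 11344 in WT-NAA and 9328 in WT-Mock. AT2G43150 ranked 3, at 7167 RPKM in *arf7*-NAA, 6050 in *arf7*-Mock, 6118 in WT-NAA and 6220 in WT-Mock. The long repeat proteins AT3G28550 and AT1G23720 followed, and their levels over the 4 libraries overlapped, at 874 to 1436 RPKM and 835 to 1391 RPKM. AT3G54580 had 491 to 835 RPKM. *ELP*, which despite its name has no Ser-Pro run and resembles lipid transfer proteins, had 294 to 455 RPKM.

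Below these few, levels were far lower. The other members with a high mean were *EXT13* (95.7 to 221 RPKM), AT4G17215 (129 to 218 RPKM, the highest of the Ole e 1 family), *EXT10* (81.0 to 175 RPKM), *PERK1* (114 to 129 RPKM, the highest of the receptor kinases), *EXT12* (54.1 to 109 RPKM), *EXT4* (47.9 to 90.6 RPKM) and the Ole e 1 genes AT2G47540 (67.2 to 86.2 RPKM), AT5G10130 (60.8 to 83.8 RPKM) and *MOP10* (57.4 to 86.8 RPKM). Reads of *EXT4* covered only 12.7% to 12.8% of its transcript, so its RPKM is not directly comparable with the others. *LRX1* and *LRX2*, which act together in root hair walls, had 45.8 to 70.6 RPKM and 19.9 to 32.7 RPKM. In all, 36 of the 47 genes had at least 20 reads over the libraries. The 11 below this were AT1G26240, AT4G08370 and AT4G08380 of the proline-rich family, *EPR1*, *PERK4* and 6 Ole e 1 genes, with sums of 1 to 16 reads. AT1G26240 had 41 Ser-Pro runs and 4 reads in all.

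**Figure D1:**
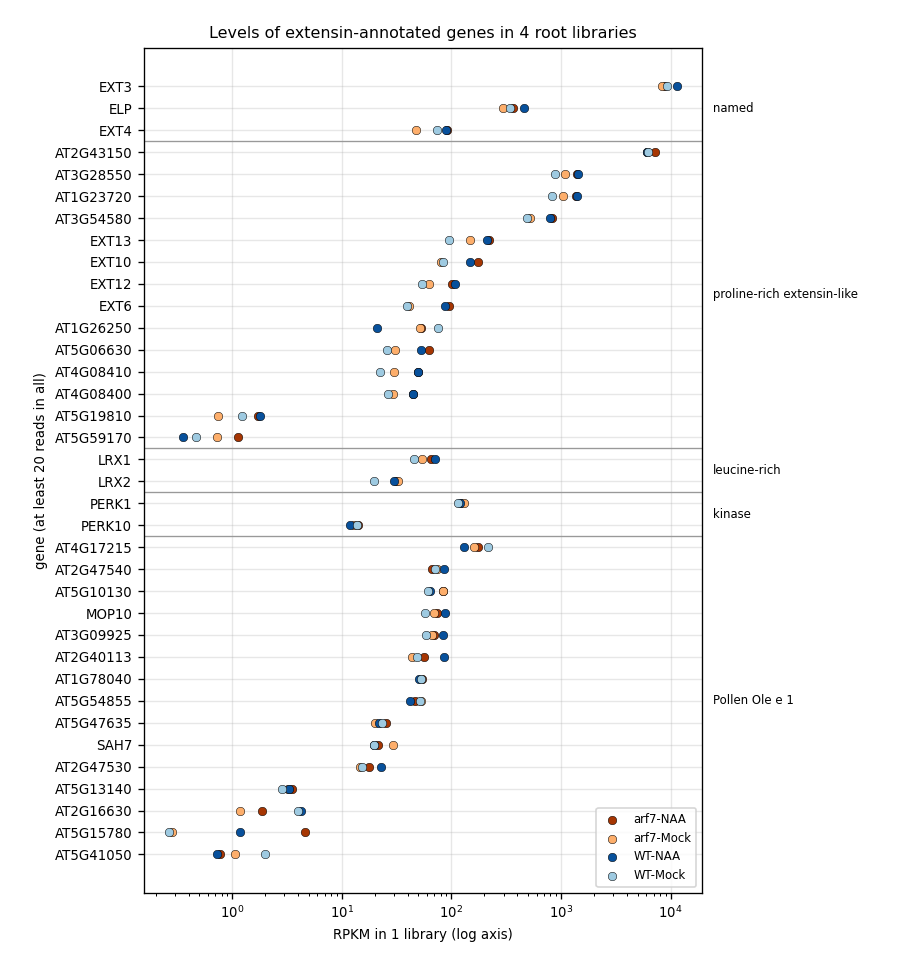
Level of each of the 36 genes with at least 20 reads, as RPKM on a log axis, with 1 point for each of the 4 libraries and genes ordered by mean level within their annotation group. *EXT3* and AT2G43150 lie far to the right of all others in every library, and the points of AT1G26250 spread more widely than those of its neighbours, with WT-NAA lowest at 21.0 RPKM.

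The first question was which of these genes changed with NAA in each genotype. In *arf7*, all 14 genes of the proline-rich family with at least 20 reads were higher in *arf7*-NAA than in *arf7*-Mock, with a median log2 ratio of 0.65. In WT, 11 of the 14 were higher in WT-NAA than in WT-Mock and 3 were lower, with a median of 0.75. The 15 Ole e 1 genes with as many reads had a median log2 ratio of 0.10 in *arf7* and of 0.10 in WT. A gene was called when its exact binomial P was under 0.0001 and its reads per library differed at least 2-fold, thresholds that the study used. In *arf7*-NAA VS *arf7*-Mock, 4 of 46 genes tested were called higher and 0 lower, where 0.39% of all loci tested were called higher and 0.386% lower. In WT-NAA VS WT-Mock, 5 of 45 were called higher and 1 lower, where 0.418% of all loci were called higher and 0.668% lower.

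The 5 genes called higher with NAA in WT were all classical repeat extensins. *EXT6* had 1126 reads in *arf7*-NAA and 496 in *arf7*-Mock, and 1080 in WT-NAA and 503 in WT-Mock. It was called in both genotypes, with a log2 ratio of 1.22 (95% interval 1.07 to 1.38, exact binomial p = 2.05e-60) in *arf7* and of 1.13 (0.98 to 1.29, exact p = 2.92e-51) in WT. AT5G06630, which shares repeats with *EXT6*, was called in both as well: 647 reads in *arf7*-NAA and 329 in *arf7*-Mock gave a log2 ratio of 1.02, and 578 in WT-NAA and 288 in WT-Mock gave 1.03. For this pair of genes the NAA libraries did not overlap the Mock libraries of either genotype. The share of all loci with this order was not counted, for this pair or for the genes below.

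*EXT13*, *EXT12* and AT4G08410 passed these thresholds in WT and not in *arf7*. *EXT13* had 1536 reads in *arf7*-NAA and 1059 in *arf7*-Mock (log2 ratio 0.58), against 1539 in WT-NAA and 715 in WT-Mock (1.14). The NAA libraries of *EXT13* were level with each other and the Mock libraries were not. *EXT12* had 1075 reads in *arf7*-NAA and 678 in *arf7*-Mock (0.71), against 1216 in WT-NAA and 618 in WT-Mock (1.01). AT4G08410 had 735 reads in *arf7*-NAA and 461 in *arf7*-Mock (0.71), against 777 in WT-NAA and 357 in WT-Mock (1.15). In each of the 3 genes both NAA libraries lay above both Mock libraries, and whether their NAA responses differed between genotypes is given with the test of that difference further on. *EXT10* was called in *arf7* alone, at 2551 reads in *arf7*-NAA and 1212 in *arf7*-Mock (1.11), with 2260 in WT-NAA and 1309 in WT-Mock (0.82).

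A single member was called lower with NAA, and only in WT. AT1G26250 (chr1:9083838-9085464 on the forward strand, TAIR10.1) had 602 reads in *arf7*-NAA and 607 in *arf7*-Mock, against 253 in WT-NAA and 926 in WT-Mock. Its log2 ratio with NAA was 0.03 in *arf7* (95% interval -0.14 to 0.19, exact binomial p = 0.730) and -1.84 in WT (-2.05 to -1.64, exact p = 1.13e-87). WT-NAA was thus the lowest of the 4 libraries and WT-Mock the highest, with both *arf7* libraries between them. Reads covered 92.5% to 95.8% of its transcript in every library. The part of its antisense neighbour AT1G26255 in these reads was not tested.

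The fourth gene called in *arf7*-NAA VS *arf7*-Mock was an Ole e 1 gene at a low level. AT5G15780 had 48 reads in *arf7*-NAA and 3 in *arf7*-Mock (log2 ratio 4.04, 2.41 to 6.37, exact binomial p = 6.28e-12), with 13 in WT-NAA and 3 in WT-Mock (2.15, 0.28 to 4.60). With a pseudocount of 1 RPKM these log2 ratios were 2.13 in *arf7* and 0.78 in WT. *EPR1*, an extensin known from the endosperm cap of germinating seeds, had 12 reads in *arf7*-NAA, 0 in *arf7*-Mock, 1 in WT-NAA and 0 in WT-Mock and was not called. *arf7*-NAA is also the library with the most seed marker reads, 468 against 7 to 26 in the other 3, and 5 of the 8 leaf and photosynthesis markers were called higher in it than in *arf7*-Mock. The part of seed or leaf RNA in the values of AT5G15780 and *EPR1* was not tested.

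**Figure D2:**
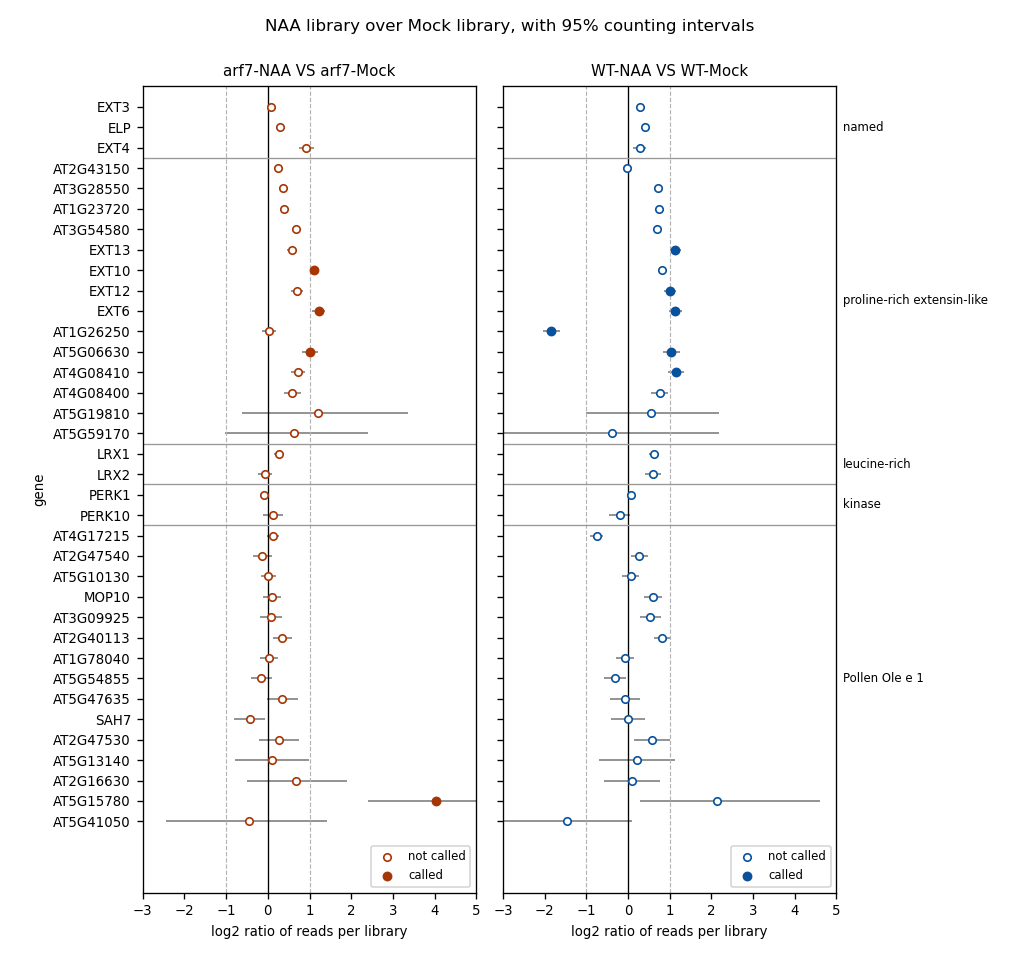
Log2 ratio of the NAA library to the Mock library for the 36 genes with at least 20 reads, *arf7* on the left and WT on the right, with exact 95% counting intervals drawn as far as the axis reaches, filled points for called genes and dashed lines at the fold threshold. Proline-rich extensins lie mostly right of 0 in both genotypes, AT1G26250 lies at 0.03 in *arf7* and -1.84 in WT, and AT5G15780 reaches 4.04 in *arf7*.

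The most abundant members changed less than 2-fold. *EXT3* had 103581 reads in *arf7*-NAA and 101291 in *arf7*-Mock (log2 ratio 0.07), against 139903 in WT-NAA and 117443 in WT-Mock (0.28). AT3G28550 had 31886 reads in *arf7*-NAA and 25308 in *arf7*-Mock (0.37), against 34315 in WT-NAA and 21327 in WT-Mock (0.72). AT1G23720 had 27853 reads in *arf7*-NAA and 21783 in *arf7*-Mock (0.40), against 29765 in WT-NAA and 18235 in WT-Mock (0.74). In both long repeat genes the NAA libraries lay above the Mock libraries, and WT-Mock was the lowest. AT3G54580 had nearly the same ratio in both genotypes, 0.67 in *arf7* and 0.70 in WT. AT2G43150 did not follow them, with a log2 ratio of 0.24 in *arf7* and of -0.02 in WT. Counting error is small at these depths, while the spread between replicate roots is unknown.

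Among the other groups no gene besides AT5G15780 was called with NAA. *LRX1* had 1116 reads in *arf7*-NAA and 954 in *arf7*-Mock (0.27), against 1279 in WT-NAA and 848 in WT-Mock (0.62). *LRX2* had 543 reads in *arf7*-NAA and 586 in *arf7*-Mock (-0.07), against 556 in WT-NAA and 373 in WT-Mock (0.61). WT-Mock was the lowest library for both leucine-rich extensins. *PERK1*, which has been tied to wound responses, stayed within 2012 to 2217 reads. *EXT4*, whose relatives respond to wounding, had 704 reads in *arf7*-NAA and 383 in *arf7*-Mock (0.92), against 738 in WT-NAA and 619 in WT-Mock (0.28). Its reads covered only 12.7% to 12.8% of the transcript. In the Ole e 1 family AT4G17215 had 799 reads in *arf7*-NAA and 758 in *arf7*-Mock (0.12), against 624 in WT-NAA and 1075 in WT-Mock (-0.75). WT-NAA was lowest and WT-Mock highest, as for AT1G26250. *MOP10*, an Ole e 1 gene known for root hair elongation, had 381 reads in *arf7*-NAA and 367 in *arf7*-Mock (0.10), against 470 in WT-NAA and 317 in WT-Mock (0.60).

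Over the 36 genes with at least 20 reads, the ratio of NAA to Mock was above 0 on the log2 scale for 30 and below 0 for 6 in *arf7*, and above 0 for 27 and below 0 for 9 in WT. Their median log2 ratio was 0.28 in *arf7* and 0.47 in WT. Over the 18160 loci with as many reads the median was -0.02 in each genotype, and 47.0% of them were higher with NAA in *arf7* and 47.4% in WT. The calls depend on how much roots of 1 condition vary. With an assumed coefficient of variation of 0.2 between replicates, edgeR's exact test called AT5G15780 in *arf7* and AT1G26250 in WT and no other member with NAA, among 46 loci of 23425 in *arf7* and 27 in WT. At 0.4 it called 0 members in each, among 8 loci in *arf7* and 2 in WT.

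The genotype comparisons moved few members past the threshold. In *arf7*-NAA VS WT-NAA, 2 of 46 genes were called higher and 0 lower, where 0.591% of all loci were called higher and 0.805% lower. These were AT1G26250, with 602 reads in *arf7*-NAA and 253 in WT-NAA (log2 ratio 1.33, 95% interval 1.11 to 1.55, exact binomial p = 6.81e-38), and AT5G15780, with 48 in *arf7*-NAA and 13 in WT-NAA (1.96, 1.06 to 2.97, exact p = 2.08e-06). With an assumed coefficient of variation of 0.2 or 0.4, edgeR's exact test called 0 members between the NAA libraries, where it called 96 and 17 loci in all. In *arf7*-Mock VS WT-Mock, 0 of 44 genes were called in either direction by the exact binomial test, where 0.466% of all loci were called higher and 0.577% lower. At an unadjusted exact p under 0.05, 20 of the 44 differed between the Mock libraries, as did 22.0% of all loci, and edgeR's exact test with an assumed coefficient of variation of 0.2 or 0.4 called 0 members and 45 and 1 loci in all.

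Several members nonetheless differed between the Mock libraries beyond counting error. *EXT13* (log2 ratio 0.63) and *LRX2* (0.72) were higher in *arf7*-Mock, and *EXT4* (-0.63), AT1G26250 (-0.54) and AT4G17215 (-0.44) were lower. The Ole e 1 gene AT2G16630 had 17 reads in *arf7*-NAA and 11 in *arf7*-Mock, against 41 in WT-NAA and 39 in WT-Mock. It passed the threshold only where a Benjamini-Hochberg adjusted p under 0.05 replaced the P threshold, with a log2 ratio of -1.76 between the Mock libraries and of -1.19 between the NAA libraries. The 36 genes had a median log2 ratio of 0.05 in *arf7*-Mock VS WT-Mock and of 0.05 in *arf7*-NAA VS WT-NAA, against 0.02 and 0.01 over all loci with as many reads. AT5G15780 had no ratio between the Mock libraries and is left out of that median. These comparisons share libraries with the NAA comparisons above.

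**Figure D3:**
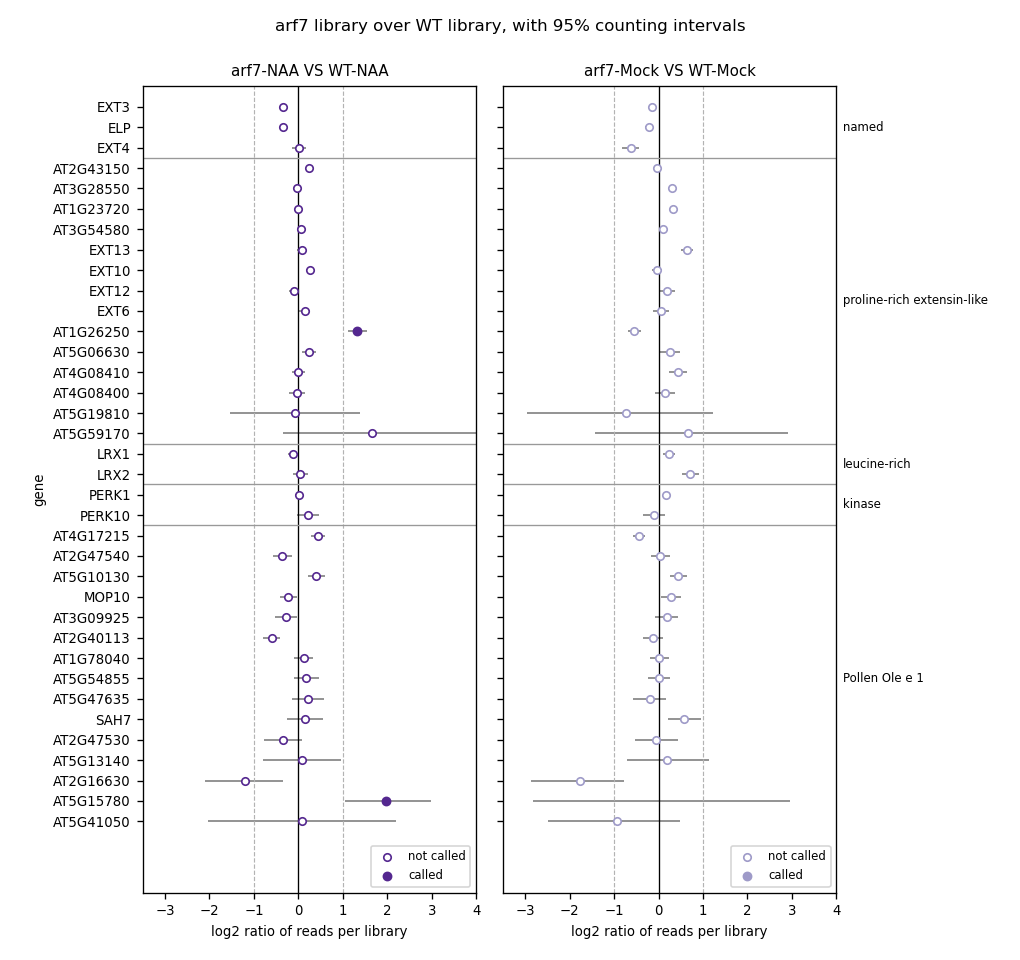
Log2 ratio of the *arf7* library to the WT library for the same 36 genes, NAA libraries on the left and Mock libraries on the right, with exact 95% counting intervals drawn as far as the axis reaches and filled points for called genes. AT1G26250 lies at 1.33 and AT5G15780 at 1.96 between the NAA libraries, and no gene is called between the Mock libraries, where AT5G15780 with 3 reads in each has an interval but no ratio.

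Whether the response to NAA differed between genotypes was tested directly, as the log2 ratio with NAA in *arf7* minus that in WT, with an exact conditional test of the 4 read counts of each gene. AT1G26250 was called, with a difference of 1.87 (95% interval 1.61 to 2.14, exact p = 1.11e-48). It was the only 1 of 47 genes called higher, and 0 were called lower, where 0.499% of all loci were called higher and 0.764% lower. *EXT13* (-0.56, exact p = 1.28e-10) and *LRX2* (-0.67, exact p = 1.99e-07) had differences below 0 that stayed under the fold threshold. *MOP10* (-0.50, exact p = 0.000835), AT4G08410 (-0.44, exact p = 0.000514) and *EXT12* (-0.30, exact p = 0.00312) had differences below 0 that missed both the P and the fold threshold. AT4G17215 (0.87, exact p = 1.90e-17), *EXT4* (0.64, exact p = 1.44e-07) and *EXT10* (0.30, exact p = 2.89e-05) had differences above 0, also under the fold threshold. The most abundant members passed the P threshold at smaller differences. These were *EXT3* (-0.21, exact p = 1.73e-131), AT3G28550 (-0.34, exact p = 4.89e-85), AT1G23720 (-0.34, exact p = 2.04e-73) and AT2G43150 (0.27, exact p = 1.43e-93). AT3G54580 (-0.03, exact p = 0.202) and *ELP* (-0.11, exact p = 0.0620) did not pass it. For *EXT6* the difference was 0.09 with an interval of -0.13 to 0.31, and for AT5G06630 it was -0.02 with an interval of -0.30 to 0.27. For AT5G15780 the interval ran from -1.20 to 4.93, so that a difference was not detectable at its depth. Over the 36 genes the median difference was -0.08, with 15 above and 21 below 0, and over all loci it was 0.00.

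The NAA ratios were also set beside the number of Ser-Pro runs in the coding sequence. Of the 18 genes with 10 or more runs, 16 had enough reads: in *arf7* 15 were higher and 1 lower with NAA, with a median log2 ratio of 0.58, and in WT 14 were higher and 2 lower, with a median of 0.73. The 18 genes of enough reads with 0 runs had medians of 0.10 in *arf7* and 0.08 in WT. All 6 genes called with NAA in WT had 14 or more runs. The number of runs did not order the ratios within the class, since AT3G28550 with 70 runs and AT2G43150 with 22 both lay under the fold threshold, while *EXT13* with 14 passed it in WT. These genes share repeats and are not independent of each other, so the classes are given without a test.

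**Figure D4:**
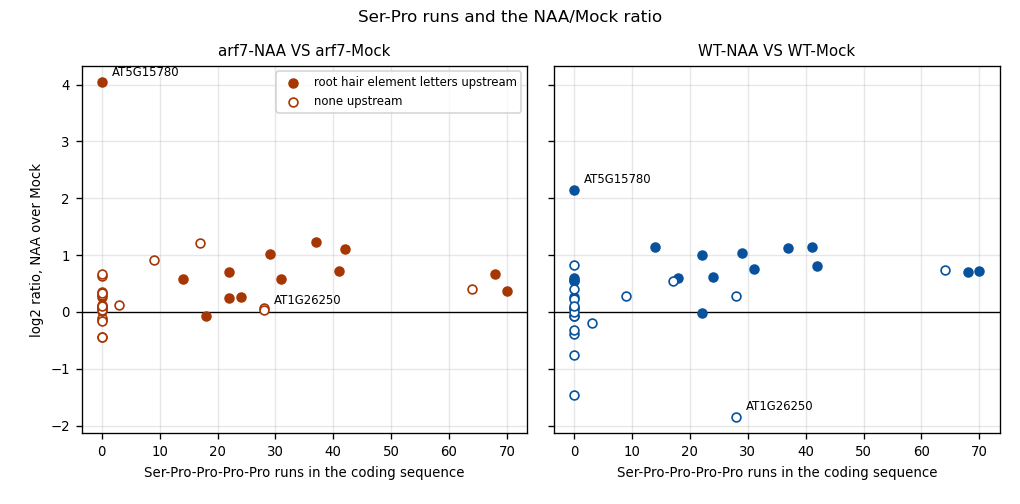
Log2 ratio of the NAA to the Mock library against the number of Ser-Pro runs (a serine followed by 4 prolines) for the 36 genes with at least 20 reads, *arf7* on the left and WT on the right, filled where root hair element letters lie upstream. Genes with 10 or more runs lie mostly above 0 in both genotypes, with AT1G26250 and AT2G43150 below 0 in WT and *LRX2* below 0 in *arf7*, and most of these points are filled.

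Upstream sequence was examined because many root hair genes carry a root hair element, bound by basic helix-loop-helix factors of the RHD6 and RSL class, and because auxin response factors bind a TGTC core. The element was searched as TGNNNNCACG or TGNNNNNCACG on both strands of the 300 bases before each annotated gene start. These letters were found upstream of 17 of the 47 genes (36.2%), against 10.4% of 27443 protein-coding genes. Some of these windows are near copies of each other, as in AT4G08400 and AT4G08410, so the 17 genes are not independent. TGTC, which can overlap the first letters of the element, was found upstream of 39 members (83.0%), against 80.8% of all, its longer form TGTCTC upstream of 9 members, against 3558 of the 27443, and TGTCGG upstream of 3, against 1348. The 3 windows printed here, from TAIR10.1, are those of *EXT6*, called with NAA in both genotypes, *EXT13*, called in WT, and AT1G26250, called lower in WT, with element letters and TGTC (GACA where it lies on the other strand) in capitals.
*EXT6*, chr2:10622096-10622395, forward: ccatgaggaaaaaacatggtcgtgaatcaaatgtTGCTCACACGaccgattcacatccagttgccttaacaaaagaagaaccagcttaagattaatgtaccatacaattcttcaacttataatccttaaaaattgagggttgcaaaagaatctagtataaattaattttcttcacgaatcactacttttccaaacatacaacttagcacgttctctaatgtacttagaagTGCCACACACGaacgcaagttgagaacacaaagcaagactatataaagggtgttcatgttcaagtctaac
*EXT13*, chr5:13433851-13434150, forward: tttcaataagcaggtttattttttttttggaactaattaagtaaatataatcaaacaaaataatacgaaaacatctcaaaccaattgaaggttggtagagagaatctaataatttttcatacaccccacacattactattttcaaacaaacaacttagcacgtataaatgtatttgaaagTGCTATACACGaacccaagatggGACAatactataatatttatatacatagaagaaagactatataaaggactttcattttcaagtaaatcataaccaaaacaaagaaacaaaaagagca
AT1G26250, chr1:9083538-9083837, forward: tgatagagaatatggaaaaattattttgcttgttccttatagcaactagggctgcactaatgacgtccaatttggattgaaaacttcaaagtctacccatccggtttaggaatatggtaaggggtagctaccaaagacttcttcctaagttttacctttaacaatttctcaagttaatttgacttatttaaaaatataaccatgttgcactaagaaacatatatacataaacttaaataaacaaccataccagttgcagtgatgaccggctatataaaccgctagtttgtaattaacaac
*EXT6* held the element letters at 2 places and no TGTC, *EXT13* held them once with a TGTC downstream of them, and AT1G26250 held neither. RefSeq marks the start of *EXT13* as partial, so its window may not end at the true start. A match describes letters in a window and is not a bound site.

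The NAA ratios are given by this property as a description, without a test, and genes that share upstream sequence are not independent. Most genes with the letters also had 10 or more Ser-Pro runs, so the 2 properties largely coincide. Of the 17 genes with element letters upstream, which all had at least 20 reads, 15 had a log2 ratio above 0 with NAA in *arf7* and 2 below it, with a median log2 ratio of 0.58 and 4 called, and in WT 16 had a ratio above 0 and 1 below it, with a median of 0.72 and 5 called. The 19 genes without the letters had medians of 0.12 in *arf7* and 0.06 in WT, with 0 called higher in either. All 5 genes called higher in WT carried the letters, as did *EXT10* and AT5G15780. In *EXT6*, *EXT12*, *EXT10*, AT5G06630 and AT4G08410 a copy lay within 80 bases of the annotated start, as it did in AT3G28550, AT3G54580 and the Ole e 1 gene AT2G47540, which were not called with NAA.

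**Figure D5:**
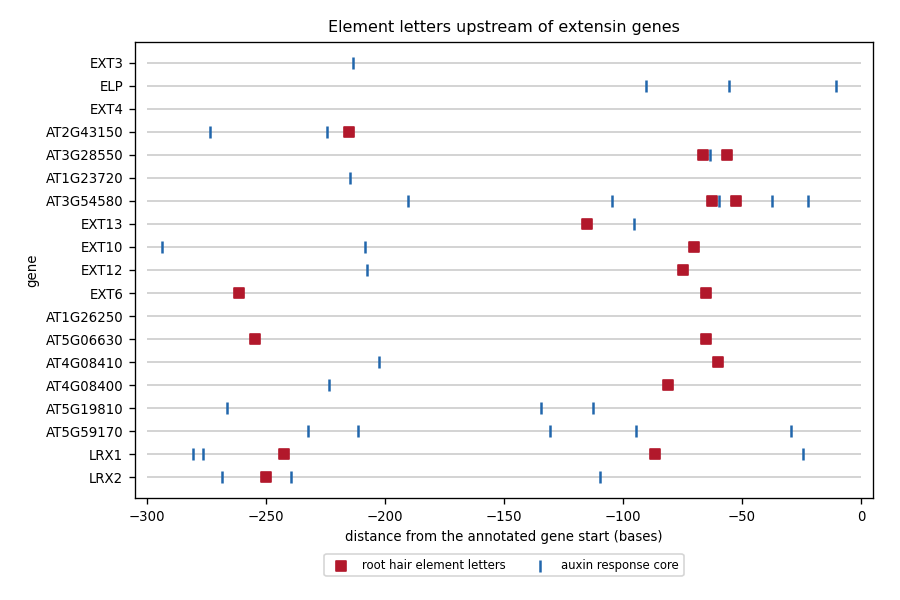
Position of root hair element letters (squares) and of the auxin response core TGTC (ticks), on either strand, relative to the annotated start of the 19 extensins outside the kinase and Ole e 1 groups with at least 20 reads, in bases. In *EXT6*, *EXT10*, *EXT12*, AT5G06630 and AT4G08410 a square lies near the same distance from the start, as in AT3G28550 and AT3G54580, which were not called with NAA, and AT1G26250 and *EXT4* hold neither.

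Genes that work with extensins were described from lists of known roles. Of 13 genes for proline hydroxylation and for the sugars of extensins, such as the hydroxylases *P4H2* and *P4H5* and the arabinosyltransferases *HPAT1* and *XEG113*, 0 were called by the exact binomial test in any comparison, and their median log2 ratio with NAA was 0.04 in *arf7* and 0.07 in WT. Of 9 genes for RALF peptides and their receptors, including *FER*, 0 were called, with medians of -0.04 in *arf7* and 0.06 in WT. Among 6 peroxidases linked to root hair extensins, 4 were listed with reads, and all 4 had log2 ratios above 0 with NAA in both genotypes, 0.01 to 0.66 in *arf7* and 0.23 to 0.82 in WT, without a call. *PRX73* had 734 reads in *arf7*-NAA and 478 in *arf7*-Mock (0.66), against 809 in WT-NAA and 469 in WT-Mock (0.82).

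Other root hair genes were set beside the extensins. Of 8 transcription factors of root hair fate and growth, 7 were higher and 1 lower with NAA in each genotype, with medians of 0.19 in *arf7* and 0.47 in WT and 0 calls. *RSL4*, which sets hair growth, had 62 reads in *arf7*-NAA and 53 in *arf7*-Mock, against 85 in WT-NAA and 50 in WT-Mock. Of 10 growth genes outside the extensins, 7 were higher and 3 lower in *arf7*, with a median of 0.09 and 0 calls, and 10 were higher and 0 lower in WT, with a median of 0.58 and 1 call. The called gene was *PRP1*, a proline-rich wall protein of root hairs, with 196 reads in *arf7*-NAA and 215 in *arf7*-Mock (-0.09), against 301 in WT-NAA and 127 in WT-Mock (1.27). *PRP1* was also the gene of this list called lower in the difference between the NAA responses.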

How the data were processed

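The deposited library tables list, per transcript model, a count of uniquely assigned reads, its RPKM and the percent of the transcript covered; per the file headers these are values per model, and the mapping tool is not given in the sources used here. Each of the 47 members had 1 listed model; for all loci, deposited counts were summed over models. The 4 deposited comparison tables, which hold the authors' log2 ratios, p-values and false discovery rates beside 16 per-library columns, were not used. Samples were grouped by their labels.

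Exact binomial and exact conditional tests on the counts given the library totals were run in Python 3.11.15 with SciPy 1.17.1 over all loci with reads. Calls needed P under 0.0001 together with a log2 ratio of 1 or more in size. Ratios took a count of 0 as 3, with no ratio where neither library exceeded 3. Medians used genes with at least 20 reads over the 4 libraries. Intervals are exact 95% intervals (Clopper-Pearson for shares of reads) and cover counting error only. The test code was checked on simulated data. Sequences, gene starts and symbols are from RefSeq TAIR10.1, in which all 47 members were found, and the files' coordinates overlapped the annotation for each. Alternatives used edgeR 4.0.16 and DESeq2 1.42.0 in R 4.3.3.

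Genes were named if called in any comparison, if among the 15 highest by mean RPKM, if leucine-rich extensins or if highest in their annotation group, with called and abundant genes from the lists where a result turned on them. *EPR1*, AT2G16630, AT1G26240, AT4G08400, AT1G78040, AT2G47540, AT4G08370, AT4G08380, AT5G59170, *PERK4* and the genes of shared sequence were named after their values were seen. The members and lists were chosen with earlier results of these data known.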

Additional observations from a re-analysis of the deposited data

Results flagged for a closer look

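AT1G26250 was singled out because its response to NAA differed between genotypes by a test of the difference itself. Its log2 ratio with NAA in *arf7* minus that in WT was 1.87 (95% interval 1.61 to 2.14), from 602 reads in *arf7*-NAA and 607 in *arf7*-Mock, against 253 in WT-NAA and 926 in WT-Mock. The direction is that of a gene lower with NAA in WT and level in *arf7*, and each count comes from 1 library. The antisense gene AT1G26255 overlaps 62.4% of its 50-base windows, and the part of that gene in these reads was not tested.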

How the results depend on the processing

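With P under 0.0001 and no fold threshold, 16 members (and 4.58% of all loci) were called in *arf7*-NAA VS *arf7*-Mock, 19 (6.55%) in WT-NAA VS WT-Mock, 10 (6.27%) in *arf7*-NAA VS WT-NAA, 14 (7.03%) in *arf7*-Mock VS WT-Mock and 11 (4.39%) in the difference between the NAA responses. With an adjusted p under 0.05, 4 (and 2.06% of all loci) were called in *arf7*-NAA VS WT-NAA, with *EPR1* and AT2G16630 added, and 1 (1.77%) in *arf7*-Mock VS WT-Mock. With edgeR's exact test at an assumed coefficient of variation of 0.2, 1 was called in *arf7*-NAA VS *arf7*-Mock (among 46 loci), 0 in *arf7*-NAA VS WT-NAA (among 96) and 1 in WT-NAA VS WT-Mock (among 27), and at 0.4 the count was 0 for all 3 (among 8, 17 and 2 loci). This test adds the assumed spread to counting error and left the log2 ratios nearly unchanged, as for *EXT6* in WT-NAA VS WT-Mock (1.13). A pseudocount of 1 RPKM gave AT5G15780 log2 ratios with NAA of 2.13 in *arf7* (in place of 4.04) and 0.78 in WT (in place of 2.15), and brought *EXT12* in WT-NAA VS WT-Mock and AT5G06630 in *arf7*-NAA VS *arf7*-Mock to 0.99, just under the threshold. TMM scaling and DESeq2 size factors kept every count of calls within 1.5 times. Taking the model with the most reads could not change a member, since each had 1 listed model. A minimum of 10 reads could not change a call either, since fewer reads cannot reach P under 0.0001. Directions of single genes were compared under TMM scaling for the called, the most abundant and the leucine-rich members, and none reversed. They were not compared under DESeq2 size factors. The scalings shifted ratios by at most 0.0232 on the log2 scale, so the sign of a ratio near 0 can depend on them. No paired analysis was possible because there is 1 library per condition. The depth limits what can be said of the 11 members under 20 reads. In the calls without a fold threshold, deep genes passed at small ratios. AT2G43150 did so at a log2 ratio of -0.04 in *arf7*-Mock VS WT-Mock, so those counts also depend on depth.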

Other observations

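The reads of *EXT4* and AT1G78040 lay on a small part of their transcripts in every library. *EXT4* was covered over 12.7% in *arf7*-NAA and *arf7*-Mock and over 12.8% in WT-NAA and WT-Mock. AT1G78040 of the Ole e 1 family was covered over 23.7% in *arf7*-NAA, 24.6% in *arf7*-Mock, 18.4% in WT-NAA and 29.2% in WT-Mock, with 349 to 372 reads. AT4G08400 and AT4G08410, which share repeats, were covered over 49.0% to 50.3% and 53.3% to 55.5%.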
